A study of Homo sapiens with 6 samples.

Results

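The 10 genes described here mark or control whether a cell is in an epithelial or a mesenchymal state: VIM, FN1, CDH1, CDH2, SNAI1, SNAI2, ZEB1, ZEB2, TWIST1 and TWIST2. Their probe sets were taken as every probe set that the platform annotation assigns to one of these symbols alone, which gave 27 of the 54613 probe sets other than controls. All 10 genes had at least 1, among 19775 genes with such a probe set on the array. The samples were SK-Hep1 cells, an established human cell line derived from a liver adenocarcinoma and plated 24 hours before a lipid transfection and collected 16 hours after it. The 3 anti-miR-21 samples received 20 nM of anti-miR-21, an oligonucleotide against the microRNA miR-21, and the 3 mock samples received PBS or no oligonucleotide according to the labels. Both groups therefore share the line and the transfection procedure, and the labels name no control oligonucleotide, so an effect of blocking miR-21 and an effect of delivering an oligonucleotide cannot be told apart. The collection protocol cites an Argonaute immunoprecipitation, whereas the molecule label and the design text give total RNA, and the sources used here do not settle this. Replicates are called biological without a statement on separate cultures, so each p value reflects only the spread among these arrays, which may be technical.

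Epithelial cells hold together through E-cadherin, the product of CDH1, at adherens junctions. In the epithelial-mesenchymal transition, zinc finger repressors of the SNAI and ZEB families and the basic helix-loop-helix factors TWIST1 and TWIST2 lower CDH1, while N-cadherin (CDH2), the intermediate filament vimentin (VIM) and the matrix protein fibronectin (FN1) come up. The SNAI and ZEB factors read a short DNA element called an E-box. SK-Hep1 is known as a mesenchymal-like line, and miR-21 is an abundant microRNA of many tumours.

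The microRNA that the oligonucleotide was directed against is shown because it is the named target of the treatment that only the anti-miR-21 arrays received. Its mature sequence (RefSeq, GRCh38.p14, chr17:59841273-59841294, plus strand) has the seed, bases 2 to 8, in capitals.
hsa-miR-21-5p: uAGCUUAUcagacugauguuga
Mature miR-21 itself is not read by these arrays.

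The level of each gene in mock cells was asked first. Values are log2 expression as the authors deposited it, and a probe set was kept for testing when its mean over the 6 arrays was at least 4. Of the 27 probe sets, 18 were kept, and they covered 8 genes: VIM, FN1, CDH2, SNAI2, ZEB1, ZEB2, TWIST1 and TWIST2. The other 9 lay between 2.13 and 3.61 on every array, and they included both probe sets of CDH1 and the single probe set of SNAI1. Levels are not set against each other between probe sets, since each probe set has its own response.

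**Figure D1:**
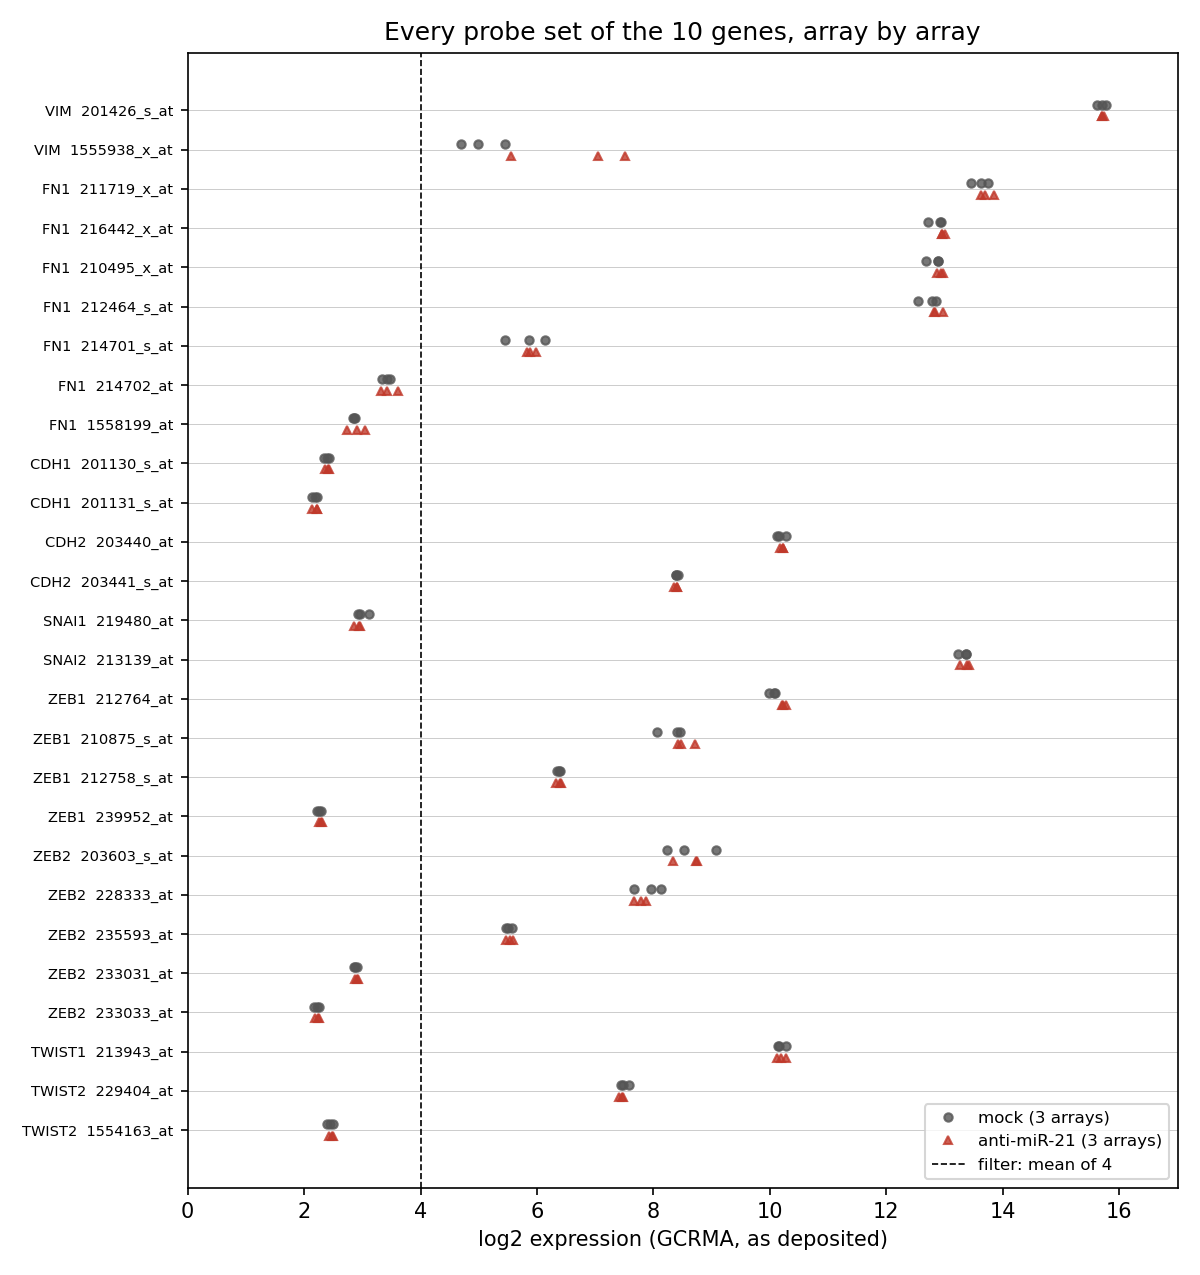
Log2 expression (x axis) of all 27 probe sets of the 10 genes (rows), with 1 point per array, grey circles for the 3 mock arrays and red triangles for the 3 anti-miR-21 arrays; the dashed line is the filter at 4. CDH1 and SNAI1 lie to the left of the line on all arrays, and the groups lie close together in every row except the second probe set of VIM.

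CDH1, the epithelial cadherin, was at 2.42, 2.39 and 2.35 in the mock arrays and 2.36, 2.42 and 2.41 in the anti-miR-21 arrays on probe set 201130_s_at. On 201131_s_at it was at 2.22, 2.19 and 2.13 in mock and 2.14, 2.22 and 2.23 in anti-miR-21. The groups overlapped on both, and neither treatment brought CDH1 above the filter. A dim probe set does not show that a transcript is absent, and in RNA of whole cultures fewer cells with a transcript and less of it per cell cannot be told apart.

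CDH2, the mesenchymal cadherin, was above the filter on both of its probe sets. On 203440_at the mock arrays read 10.27, 10.13 and 10.15 and the anti-miR-21 arrays 10.23, 10.23 and 10.18, a log2 fold change of 0.03 with a 95% interval of -0.11 to 0.16 (limma adjusted p = 0.846). On 203441_s_at the means were 8.39 ± 0.023 in mock and 8.39 ± 0.037 in anti-miR-21 (SD, n = 3), and the interval ran from -0.12 to 0.11. The groups overlapped on both probe sets, and the second had the smallest spread between replicates of the 18 kept (pooled SD 0.030, against a median of 0.090 over all 22408 kept probe sets).

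The comparison of 3 anti-miR-21 with 3 mock arrays called none of the 18 kept probe sets at a limma adjusted p of 0.05. Over the whole table, 2.17% of the 22408 kept probe sets were called, 1.10% higher and 1.07% lower. At an unadjusted p of 0.05, 2 of the 18 passed, the dim one of VIM and the brightest of ZEB1, against 17.8% of all kept probe sets. The groups did not overlap on 3 of the 18, all higher in anti-miR-21, against 24.0% of all kept probe sets in either direction and 11.4% higher. The median log2 fold change was 0.03 over the 18 and -0.0027 over all kept probe sets, and 16 of the 18 differed by under 0.2 in either direction, as did 81.3% of all. The non-overlapping share of 16.7% was above the 11.4% of all kept probe sets that were higher and below the 24.0% in either direction. It rests on 3 probe sets, too few to set the members apart from the whole table. The shares past a p threshold were below those of all kept probe sets.

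**Figure D2:**
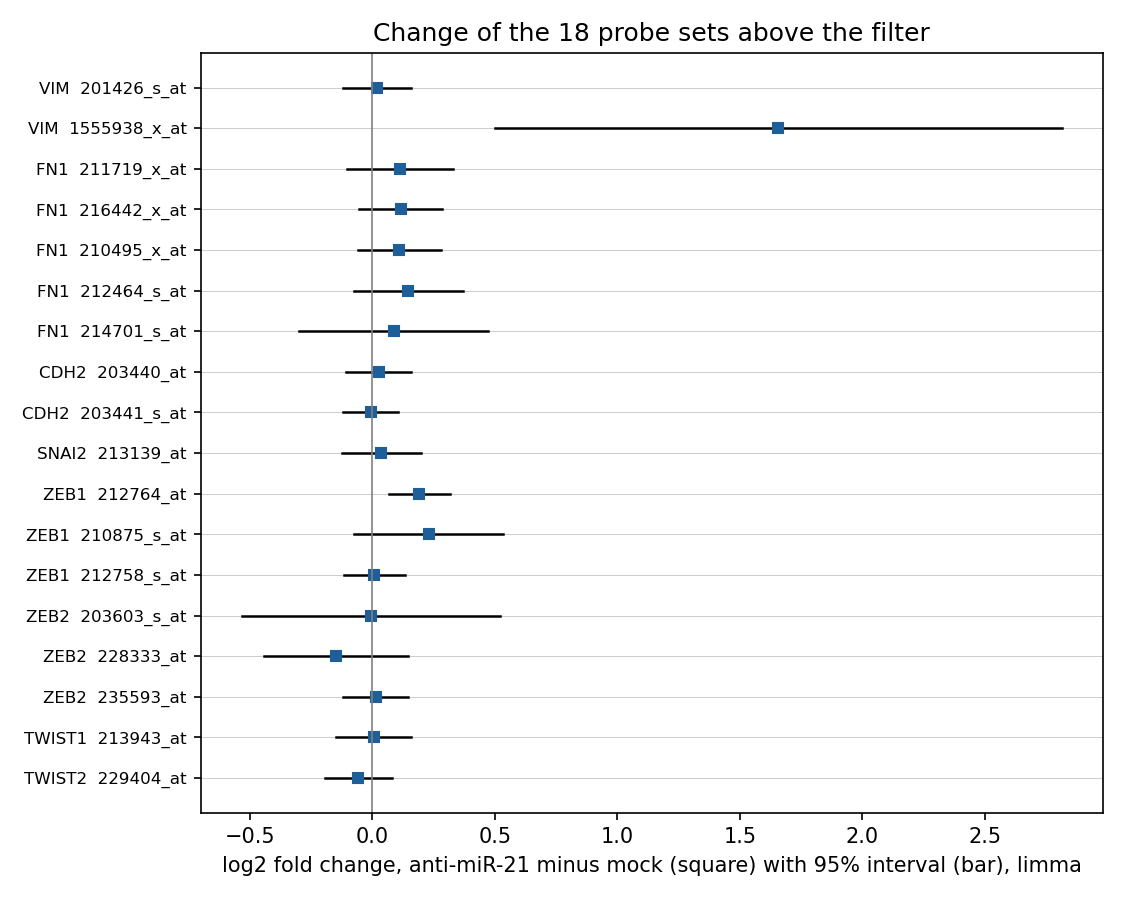
Log2 fold change, anti-miR-21 minus mock (squares), with the unadjusted 95% interval of the limma fit (bars), for the 18 kept probe sets. The intervals of VIM 1555938_x_at and ZEB1 212764_at lie above 0, and those of the other 16 include 0; none of the 18 passed after adjustment.

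The structural genes were read on probe sets of very different brightness. VIM, the type III intermediate filament of mesenchymal cells, was at 15.61, 15.71 and 15.78 in mock and 15.71, 15.71 and 15.74 in anti-miR-21 on its bright probe set 201426_s_at. The anti-miR-21 arrays all lay within the mock range. The log2 fold change was 0.02 ± 0.058 (SE), with a 95% interval of -0.12 to 0.16, or 0.921- to 1.12-fold (limma adjusted p = 0.888).

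The dim VIM probe set 1555938_x_at gave the widest difference among the 10 genes. It read 4.70, 4.99 and 5.45 in mock and 5.55, 7.04 and 7.51 in anti-miR-21. The groups did not overlap, but anti-miR-21 replicate 1 lay 0.11 above the highest mock array and well below the other anti-miR-21 arrays. The means were 5.05 ± 0.37 and 6.70 ± 1.02 (SD, n = 3), a log2 fold change of 1.66 ± 0.485 (SE) with a 95% interval of 0.50 to 2.81 (limma adjusted p = 0.148). Its pooled SD of 0.77 was larger than that of 99.95% of kept probe sets. The mean of the 2 VIM probe sets gave 0.84 with a 95% interval of 0.27 to 1.41 (limma adjusted p = 0.117). That mean joins the level bright probe set with the dim one.

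The adjusted p of the dim VIM probe set depended on 1 array. Without anti-miR-21 replicate 1 the log2 fold change was 2.23 ± 0.244 (SE, limma adjusted p = 0.0200), and with any other array left out or with the other settings tried the adjusted p lay above 0.05, at 0.334 without the filter. On the first principal component of all kept probe sets, which held 50.4% of the variance, anti-miR-21 replicate 1 lay at 3.51, between the mock arrays (-19.95 to -7.25) and the other anti-miR-21 arrays (19.63 and 20.11). The part of that array's position in the VIM value was not tested. The suffix of the dim probe set marks probes that can cross-hybridise, and which transcript it reports was not tested.

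FN1, the matrix glycoprotein fibronectin, had 7 probe sets, of which 5 were kept. On 212464_s_at the mock arrays read 12.85, 12.54 and 12.78 and the anti-miR-21 arrays 12.83, 12.98 and 12.81. Mock replicate 2 was the lowest of the 6 arrays, and the groups overlapped. The log2 fold change was 0.15 ± 0.093 (SE, limma adjusted p = 0.463). On 216442_x_at the arrays read 12.93, 12.72 and 12.92 in mock and 12.96, 13.01 and 12.95 in anti-miR-21, which did not overlap, by a margin smaller than the spread within mock (log2 fold change 0.12 ± 0.071 SE, limma adjusted p = 0.444). All 5 kept FN1 probe sets had positive values, from 0.09 to 0.15, with adjusted p of 0.444 to 0.817. Without mock replicate 2 the values of the 4 brightest lay between 0.04 and 0.06, and that of 214701_s_at was -0.09. They read 1 transcript family, and mock replicate 2 was the lowest array on all 5, so they are not separate evidence. The mean of the 5 gave 0.12 with a 95% interval of -0.10 to 0.33 (limma adjusted p = 0.516).

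The remaining FN1 probe sets, 214702_at and 1558199_at, lay under the filter, at mock means of 3.41 and 2.86 and anti-miR-21 means of 3.45 and 2.89.

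Among the repressors, SNAI2 was above the filter and SNAI1 was not. SNAI2, also called Slug, was at 13.37, 13.37 and 13.23 in mock and 13.26, 13.42 and 13.39 in anti-miR-21, overlapping groups with a log2 fold change of 0.04 and a 95% interval of -0.12 to 0.20, or 0.917- to 1.15-fold (limma adjusted p = 0.819). SNAI1, also called Snail, was at 2.96, 2.92 and 3.12 in mock and 2.86, 2.95 and 2.96 in anti-miR-21, under the filter on all 6 arrays. A fit without the filter gave it -0.08 (limma adjusted p = 0.866).

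ZEB1, a repressor with clusters of zinc fingers at both ends, held the probe set with the smallest p of the 18 kept. On 212764_at it read 10.08, 10.07 and 9.99 in mock and 10.21, 10.22 and 10.28 in anti-miR-21. The lowest treated array lay above the highest mock array. The log2 fold change was 0.19 ± 0.052 (SE), with a 95% interval of 0.07 to 0.32, or 1.05- to 1.25-fold (limma adjusted p = 0.126). The adjusted p lay between 0.100 and 0.351 over the 12 other settings, so the value kept its sign without passing in any of them.

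A second ZEB1 probe set, 210875_s_at, had a log2 fold change of 0.23 from arrays that overlapped, at 8.45, 8.41 and 8.06 in mock and 8.42, 8.47 and 8.72 in anti-miR-21 (limma adjusted p = 0.399). It was 0.11 once mock replicate 3 was left out, and 0.14 once the third anti-miR-21 array was. The third, 212758_s_at, read 6.40, 6.37 and 6.34 in mock and 6.32, 6.42 and 6.40 in anti-miR-21, with an interval of -0.12 to 0.13. The mean of the 3 gave 0.14 with a 95% interval of -0.02 to 0.30 (limma adjusted p = 0.294). ZEB1-AS1, the antisense transcript that starts beside ZEB1, was chosen after the data were seen; it read 3.91, 3.91 and 3.66 in mock and 3.90, 3.96 and 4.46 in anti-miR-21, with overlapping groups under the filter.

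ZEB2, the paralog of ZEB1, varied most within the mock group on its brighter probe sets. On 203603_s_at the mock arrays read 9.07, 8.53 and 8.23, a wider span than the 8.33, 8.73 and 8.75 of the anti-miR-21 arrays. On 228333_at they read 8.13, 7.96 and 7.66, with 7.66, 7.87 and 7.78 in anti-miR-21. Mock replicate 1 was the highest array and mock replicate 3 the lowest mock array on both. The log2 fold changes were 0.00 ± 0.221 and -0.15 ± 0.124 (SE), and the interval of the first, -0.53 to 0.52, is wide enough to hold a change of 1.44-fold in either direction. The tighter probe set 235593_at gave 0.02, with an interval of -0.12 to 0.15 (limma adjusted p = 0.912).

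TWIST1 and TWIST2, helix-loop-helix factors of mesodermal cells, overlapped between groups. TWIST1 read 10.28, 10.14 and 10.16 in mock and 10.13, 10.28 and 10.19 in anti-miR-21, with a log2 fold change of 0.01 and a 95% interval of -0.15 to 0.16 (limma adjusted p = 0.968). TWIST2 read 7.45, 7.47 and 7.58 in mock and 7.46, 7.40 and 7.48 in anti-miR-21 on 229404_at, with -0.06 and an interval of -0.19 to 0.08 (limma adjusted p = 0.651). Its other probe set, 1554163_at, lay at 2.45 and 2.47.

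For CDH2, SNAI2, TWIST1, TWIST2 and the bright VIM probe set, the 95% intervals therefore lay within 0.875- to 1.15-fold. Those of ZEB1 212758_s_at and ZEB2 235593_at did too, while those of the other kept probe sets reached further. The bright VIM probe set lay near 16.18, the highest value in the data, and whether a ceiling narrowed its interval was not tested. A narrow interval does not show that a probe set follows its transcript. ZEB1 212758_s_at and ZEB2 235593_at fell from mock replicate 1 to 3, as did CDH1 under the filter. So did the brighter ZEB1 210875_s_at and ZEB2 203603_s_at, and a part of background in this order was not tested. All 9 probe sets under the filter overlapped between groups, with log2 fold changes of -0.08 to 0.04. Signals this dim can hide a change, so these values do not bound one.

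**Figure D3:**
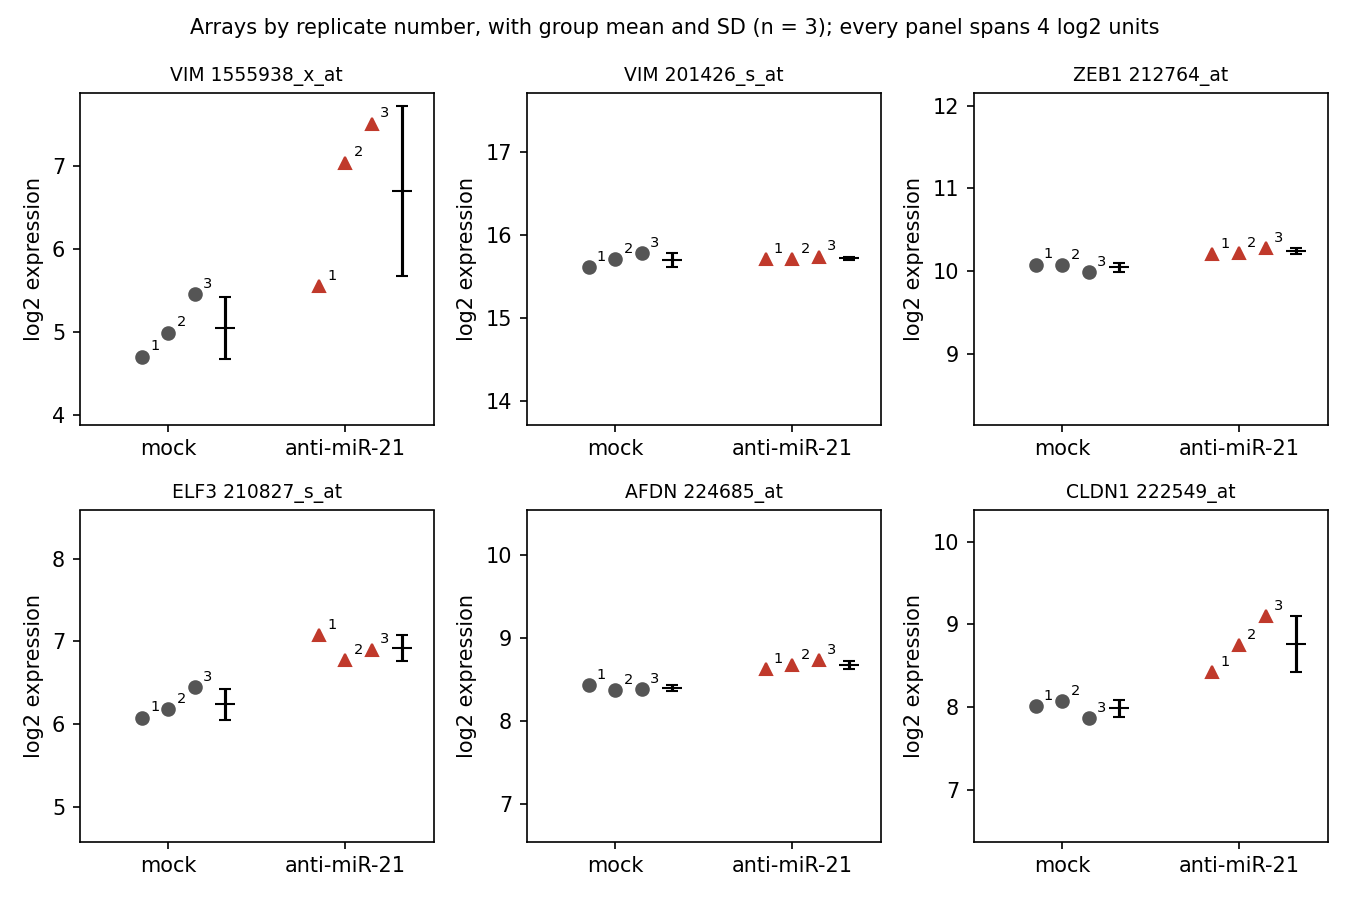
Log2 expression of 6 probe sets by group, with each array marked by its replicate number and the mean and SD (n = 3) at its right; every panel spans 4 log2 units. The dim VIM probe set and CLDN1 spread among the anti-miR-21 arrays with replicate 1 lowest, the bright VIM probe set is level, and ZEB1, ELF3 and AFDN separate by group by amounts of 0.19, 0.68 and 0.28.

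The other genes of epithelial and mesenchymal state came from 10 lists with 139 genes in all, of which 94 had a kept probe set; a gene is represented by its brightest one. Of the 94, 2 rose and none fell, against 0.913% higher and 1.22% lower among the 10848 genes with a kept probe set. The groups did not overlap for 22 of the 94, against 25.5% of all genes. Lists with more than 2 kept genes had median log2 fold changes of -0.06 to 0.06, against -0.018 over all 10848 genes. These counts and medians are a description, with no test of a list.

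In the list of epithelial transcription and splicing factors, 8 of the 12 genes lay under the filter, among them ESRP1, GRHL2 and OVOL2, and 2 were kept. ELF3, an epithelium-specific ETS factor, rose 1.60-fold, from 6.08, 6.18 and 6.45 in mock to 7.08, 6.77 and 6.90 in anti-miR-21 (limma adjusted p = 0.0424). All treated arrays lay above all mock arrays. Its second kept probe set, 201510_at, had 0.20 (limma adjusted p = 0.288), with its highest mock and its lowest treated array both at 5.97. Its remaining probe set, 229842_at, had a mean under the filter. It read 3.59, 3.62 and 3.55 in mock and 4.63, 4.06 and 3.81 in anti-miR-21, without overlap (limma adjusted p = 0.398 in the fit without the filter). OVOL1, an epithelial zinc finger repressor, had 0.08 (limma adjusted p = 0.522). The call of ELF3 was lost without the filter (limma adjusted p = 0.0948), with quantile normalization (0.0526) and with the replicate block (0.121). It was also lost with any 1 array left out (0.0505 to 0.155).

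Of 8 kept catenins and junction adaptors, 1 rose and none fell. AFDN, afadin, which ties nectins to actin at adherens junctions, rose 1.21-fold, from 8.43, 8.37 and 8.38 in mock to 8.63, 8.67 and 8.73 in anti-miR-21 (limma adjusted p = 0.0477). The groups stood apart by more than the spread within either. Its other 6 probe sets lay under the filter. Its call was lost with trend and robust moderation (limma adjusted p = 0.0609), with the replicate block (0.203) and with any 1 array left out (0.0621 to 0.180). Plakoglobin (JUP) had -0.26 and the plakophilin-related PKP4 0.16 (limma adjusted p = 0.167 and 0.218), and β-catenin (CTNNB1) 0.0035 (limma adjusted p = 0.986). Among the settings tried, PKP4 passed with probe sets averaged per gene and in no other.

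The E-box letters read by SNAI and ZEB factors were looked for in promoters from RefSeq (GRCh38.p14), each 250 bases before to 50 after a start. The motif was CACCTG, which is CAGGTG on the other strand. It occurred in 20.6% of 35116 such windows and in 2 of the 13 windows of the 6 member genes listed there, both among the 7 windows of ZEB1. CDH1, SNAI1, SNAI2 and TWIST1 had no window there, so their promoters were not searched. The window of ZEB1 with the most matches is shown with those of ELF3 and AFDN, the list genes that passed, so that a reader can see the letters beside the values above; matches are in capitals. They lie at chr10:31318966-31319265, chr1:202010337-202010636 and chr6:167827385-167827684, all on the plus strand.
ZEB1: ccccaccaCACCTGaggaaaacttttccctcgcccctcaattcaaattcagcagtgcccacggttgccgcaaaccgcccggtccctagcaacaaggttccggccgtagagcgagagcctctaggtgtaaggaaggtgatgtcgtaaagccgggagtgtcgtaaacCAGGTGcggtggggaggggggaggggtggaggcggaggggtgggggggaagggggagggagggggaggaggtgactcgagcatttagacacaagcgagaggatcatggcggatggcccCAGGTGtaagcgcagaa
ELF3: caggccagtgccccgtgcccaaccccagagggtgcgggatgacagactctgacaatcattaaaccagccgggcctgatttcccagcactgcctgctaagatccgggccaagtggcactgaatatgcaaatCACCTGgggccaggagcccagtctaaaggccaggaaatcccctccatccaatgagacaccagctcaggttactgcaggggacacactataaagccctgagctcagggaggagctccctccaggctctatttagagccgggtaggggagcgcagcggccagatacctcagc
AFDN: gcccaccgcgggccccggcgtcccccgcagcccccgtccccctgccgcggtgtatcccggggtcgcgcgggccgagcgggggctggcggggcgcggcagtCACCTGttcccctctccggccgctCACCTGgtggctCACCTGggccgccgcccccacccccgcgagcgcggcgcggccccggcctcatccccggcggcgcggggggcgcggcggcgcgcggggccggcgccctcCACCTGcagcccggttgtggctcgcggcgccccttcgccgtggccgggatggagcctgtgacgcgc
ZEB1 held 3 matches in that window, ELF3 1 and AFDN 4, and 0.635% of all windows held 3 or more. That share is over single windows, whereas the ZEB1 window was picked as the highest of 7, so its count is not comparable with it. ELF3 and AFDN were shown because they passed in these data, and no link between matches and calls was tested. Among the list genes the most matches, 5, were in a window of CLDN7, whose groups overlapped (log2 fold change 0.11, limma adjusted p = 0.444), and in that of CRB3, which lay under the filter. A match describes the letters only and does not show a bound site.

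None of 13 kept epithelial junction and keratin genes passed. CLDN1, the tight junction protein claudin 1, read 8.01, 8.07 and 7.87 in mock and 8.42, 8.75 and 9.10 in anti-miR-21, a difference of 0.77 on the log2 scale (limma adjusted p = 0.0724). The groups did not overlap, and anti-miR-21 replicate 1 was again the lowest treated array. CLDN1 passed with the filter at 6 (adjusted p = 0.0485), without anti-miR-21 replicate 1 (0.0272) and with probe sets averaged per gene. KRT19, a simple epithelial keratin, had -0.14 and the tight junction gene OCLN 0.15 (limma adjusted p = 0.188 and 0.340). KRT8 and KRT18, the keratin pair of simple epithelia and hepatocytes, were above the filter at 14.65 and 15.15 in mock, with 0.08 and 0.04, and EPCAM at 7.37 with -0.08. CLDN3, CLDN4, CRB3 and RAB25 lay under the filter.

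None of 14 kept mesenchymal cytoskeleton and surface genes passed, and the groups overlapped for all 14. The smallest p belonged to endoglin (ENG, 0.16), S100A4 (-0.08) and MCAM (-0.08), with limma adjusted p of 0.409, 0.496 and 0.527. The receptor tyrosine kinase AXL read 13.93 in mock and 13.87 in anti-miR-21, and smooth muscle actin (ACTA2) 10.94 and 10.93. CNN1, NES, DES, PDGFRA, PDGFRB and NCAM1 lay under the filter.

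Fibronectin binds integrins, and none of 13 kept receptor and matrix genes passed. ITGA5, the α chain of the main fibronectin receptor, read 9.76, 9.63 and 9.83 in mock and 9.42, 9.50 and 9.43 in anti-miR-21, lower in every treated array, and the log2 fold change was -0.29 (limma adjusted p = 0.0897). ITGB5 had -0.13 and TGFBI -0.12 (limma adjusted p = 0.317 and 0.433). ITGB1, the β partner of ITGA5, had 0.04 (limma adjusted p = 0.833).

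Of the other cadherins, 6 of 10 lay under the filter and none of 2 kept passed: CDH10 had -0.19 and CDH24 0.31 (limma adjusted p = 0.113 and 0.230). Of 8 other transcription factors tied to the transition, none passed. SOX4 read 8.57, 8.48 and 8.66 in mock and 8.17, 8.21 and 8.30 in anti-miR-21, lower in every treated array (log2 fold change -0.34, limma adjusted p = 0.0595), and it passed with the filter at 6 (0.0423), with quantile normalization (0.0488) and with probe sets averaged per gene. ETS1 had 0.38 and FOXC2 0.18 (limma adjusted p = 0.0992 and 0.217).

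The proteins that SNAI and ZEB factors recruit or are marked by gave no call. None of 15 corepressor genes passed, with the histone deacetylases HDAC3 and HDAC2 at -0.19 and -0.21 and the polycomb subunit EED at -0.12 (limma adjusted p = 0.148, 0.229 and 0.285). None of 10 kinases and ligases passed, with LATS2 at 0.38, PRKD1 at -0.33 and FBXL14, an F-box protein that targets SNAI1 protein, at -0.21 (limma adjusted p = 0.0926, 0.0992 and 0.356). None of 9 inducing signals passed, with TGFB2 at 0.25, WNT5A at -0.13 and JAG1 at -0.15 (limma adjusted p = 0.156, 0.370 and 0.522).

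**Figure D4:**
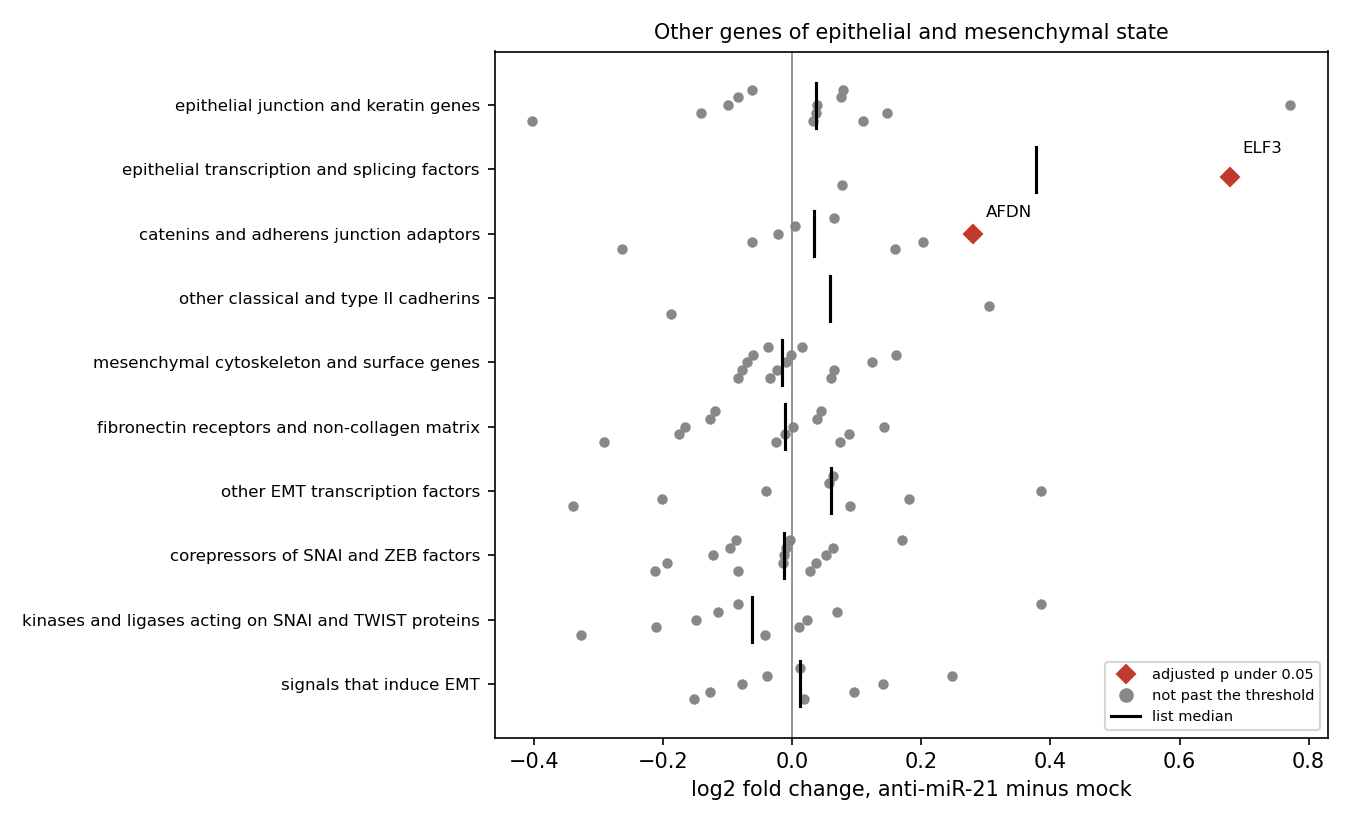
Log2 fold change, anti-miR-21 minus mock, of the 94 kept genes in 10 lists (rows), with 1 point per gene, red diamonds for a limma adjusted p under 0.05 and black bars for list medians. ELF3 and AFDN are the genes that passed, and the medians of lists with more than 2 genes lie between -0.06 and 0.06.

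The labelled cell type was checked against markers. Of 9 measured hepatocyte markers, 6 lay under the filter, including ALB, APOA1 and APOB, while SERPINA1 was at 11.87 in mock. Of 8 endothelial markers, 6 lay under it, including PECAM1, CDH5 and VWF, while TEK and CLDN5 were kept at 4.64 and 4.10 in mock. Of 4 measured immune markers, PTPRC, CD3E and ITGAM lay under it and CD14 was kept at 5.24. Of 5 stromal markers, 4 lay under it, including DCN, while LUM, the matrix proteoglycan lumican, was kept at 8.14, 7.78 and 7.60 in mock and 7.61, 7.63 and 7.79 in anti-miR-21. No kept marker passed the test in either direction. The summed unlogged level of the hepatocyte list was 3681 to 3965 in mock and 4004 to 4132 in anti-miR-21, and that of the immune list was 55.5 to 55.9 and 57.1 to 65.0, so the groups did not overlap on either. The hepatocyte sum was almost wholly SERPINA1 (log2 fold change 0.10, limma adjusted p = 0.359). In the immune list CD14 was the brightest gene and overlapped between groups, at 5.23, 5.24 and 5.27 in mock and 5.58, 5.25 and 5.25 in anti-miR-21, and the other 3 genes of that sum lay under the filter. The endothelial and stromal sums overlapped, at 79.9 to 83.7 and 221.5 to 310.4 in mock and 81.6 to 85.5 and 223.0 to 249.9 in anti-miR-21. Their part in the values above was not tested. MIR200CHG and MIR205HG, host transcripts of microRNAs known to act on ZEB1 and ZEB2, were chosen after the data were seen and lay under the filter on all arrays, at mock means of 2.25 and 2.10.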

How the data were processed

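The authors deposited log2 expression values, 1 array per sample, which the submitters' processing notes credit to GCRMA, a method that corrects background by probe sequence, normalizes and summarises; version and settings: not given in the sources used here. Because GCRMA compresses dim signals, folds from near the floor are less certain. The values were used without further normalization. Of the probe sets other than 62 controls, 41091 listed 1 gene, 1801 several and 11721 none, and no gene was named from those listing several. Probe sets with a mean of at least 4 were fitted with limma 3.58.1 in R 4.3.3 (lmFit, eBayes, no covariate), two-sided, adjusted by Benjamini-Hochberg over 22408 probe sets, threshold 0.05. Adjusted p values come from this fit unless a setting is named. The fit was tested on simulated data with independent noise. Those data carry no shift shared by a whole array, so that test does not cover one. Each group has 3 arrays, and that number limits the precision. Arrays correlated at 0.99625 to 0.99828 within groups and 0.99387 to 0.99729 between. The members and lists were chosen with earlier results of these data known. All 10 members are reported, with every called gene of a list and its smallest p up to 3; KRT8, KRT18, EPCAM, AXL, ACTA2, ITGB1 and CTNNB1 were named after their values were seen. Filter, scaling, moderation, replicate block, averaging of probe sets and single arrays left out were varied.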

Additional observations from a re-analysis of the deposited data

How the results depend on the processing

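The count of called member probe sets stayed at 0 under 11 of 12 settings, and lay between 0 and 1 with single arrays left out; the 1 was VIM 1555938_x_at without anti-miR-21 replicate 1. The count over all kept probe sets was 486; it was 91 with the replicate number as a block, and 96 to 572 with single arrays left out. The list genes called numbered 2; they were 1 without the filter, 4 with the filter at 6, 1 with trend and robust moderation, 0 with the replicate block, 5 with probe sets averaged per gene, and 0 to 1 with single arrays left out. Same-numbered arrays did not deviate together (correlations of deviations of -0.361, -0.266 and -0.002), and differently numbered arrays gave -0.232 to 0.399. With so few arrays per group the deviations constrain each other, so these correlations cannot decide whether the numbers pair the samples. The block is given as a setting only. Median centring and quantile normalization moved the median of kept probe sets by under 0.01.

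Of 213 refits of the 18 kept members (3 of them too dim for the filter at 6), 17 changed sign, none of them called. ZEB2 235593_at went to -0.0006 with quantile normalization. The others came from single arrays left out, with ranges of -0.024 to 0.060 for VIM 201426_s_at, -0.093 to 0.25 for FN1 214701_s_at, -0.0002 to 0.067 for CDH2 203440_at, -0.017 to 0.015 for CDH2 203441_s_at, -0.010 to 0.084 for SNAI2 213139_at, -0.013 to 0.039 for ZEB1 212758_s_at, -0.19 to 0.23 for ZEB2 203603_s_at, -0.011 to 0.045 for ZEB2 235593_at and -0.034 to 0.048 for TWIST1 213943_at. Signals near the filter are limited by signal over background, and scanner files were not used here. For VIM 1555938_x_at this concerns the mock arrays more, at a mean of 5.05 against 6.70 in anti-miR-21.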
